A study of Mus musculus with 8 samples.

Results

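The pan-endothelial identity genes were Pecam1, Cdh5, Tie1, Tek, Kdr, Flt1, Emcn, Erg, Egfl7 and Eng, 10 of the 43346 genes in the deposited count table, taken by gene symbol. Their mRNA was measured by RNA sequencing in the cardiac ventricles of 8 male C57BL/6 mice, none of which was described as carrying an engineered allele. At 7 weeks of age, 4 mice received 1000000 LLC1 cells under the skin of the left flank (the tumor-bearing mice) and 4 received the phosphate-buffered saline vehicle alone (the PBS-injected mice). All ventricles were taken 14 days after the injection. LLC1 is a Lewis lung carcinoma line derived from a C57BL/6 mouse, so 1 implanted cell line stands for the tumor, and the tissue sequenced was whole heart muscle away from the tumor. The mice are named by treatment and replicate code, and values per mouse follow the order LLC1 1-2, 1-3, 1-5 and 2-2, then PBS 1-1, 1-3, 2-1 and 2-5. The comparison of the groups asked how the hearts of tumor-bearing mice differed from those of control mice.

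Endothelial cells line every vessel of the heart, and in the ventricle most of them belong to the capillaries that run between the muscle fibers. They carry receptor tyrosine kinases for vascular endothelial growth factors (VEGFs) and angiopoietins, and they seal the vessel wall with junctions built on VE-cadherin. ETS family transcription factors such as ERG keep the endothelial genes switched on. Because these genes are used by nearly all endothelial cells and little by heart muscle cells, they serve as markers of the whole lineage. In whole tissue, fewer endothelial cells and less RNA of a gene per cell cannot be told apart.

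Library totals ranged from 15342214 to 19747596 counts with tumor and from 12480706 to 16192158 counts without. Values are given in CPM, counts per 1000000 after scaling with edgeR's TMM factors, and 1 CPM was worth 11.66 to 19.88 counts in a library. Of all genes, 16111 passed edgeR's filter on low counts and were tested with its quasi-likelihood test, and FDR stands for the p-value after Benjamini-Hochberg adjustment over these genes. Genes with an FDR under 0.05 are referred to as called. By that rule 8.73% of the genes tested were called, 4.61% lower and 4.12% higher in tumor-bearing mice. Of the calls, 52.8% were lower, a share that was 77.9% when libraries were scaled by their total counts alone. The tissue label was met by 13 cardiomyocyte markers, which summed to between 131774 and 153119 CPM in every library. PBS 1-1 had the lowest total and the lowest TMM factor, 0.9353 against 1.042 to 1.051 in the other PBS-injected mice, and calls of the identity genes that change without it are given both ways.

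All 10 identity genes passed the filter. Kdr and Emcn fell in the tumor-bearing mice, Flt1 rose, and the other 7 were not called. This is 2 of 10 called lower where 4.61% of all genes were, and 1 of 10 called higher where 4.12% were. The log2 fold change, of tumor-bearing over PBS-injected mice, was below 0 for 9 of the 10, with a median of -0.22 beside -0.01 over all genes tested. For 4 of the 10 (Kdr, Flt1, Emcn and Egfl7) the groups did not overlap, while the same held for 17.2% of all genes tested. The 10 genes together came to 1247 ± 81.4 CPM (SD, n = 4) with tumor and to 1451 ± 134 CPM (SD, n = 4) without. The ranges of the sum overlapped, at 1177 to 1350 CPM and 1278 to 1606 CPM, and the lowest PBS-injected mouse was PBS 1-1. Without PBS 1-1, the number called lower was 5, with Cdh5, Pecam1 and Egfl7 added to Kdr and Emcn, where 6.38% of all genes were called lower, and the groups did not overlap for 6 genes, as for 24.7% of all genes. Without LLC1 1-3, LLC1 2-2 or PBS 1-3, only 1 of the 10 was called lower and none higher, where 2.02% to 2.95% of all genes were called lower and 1.30% to 2.16% higher.

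**Figure D1:**
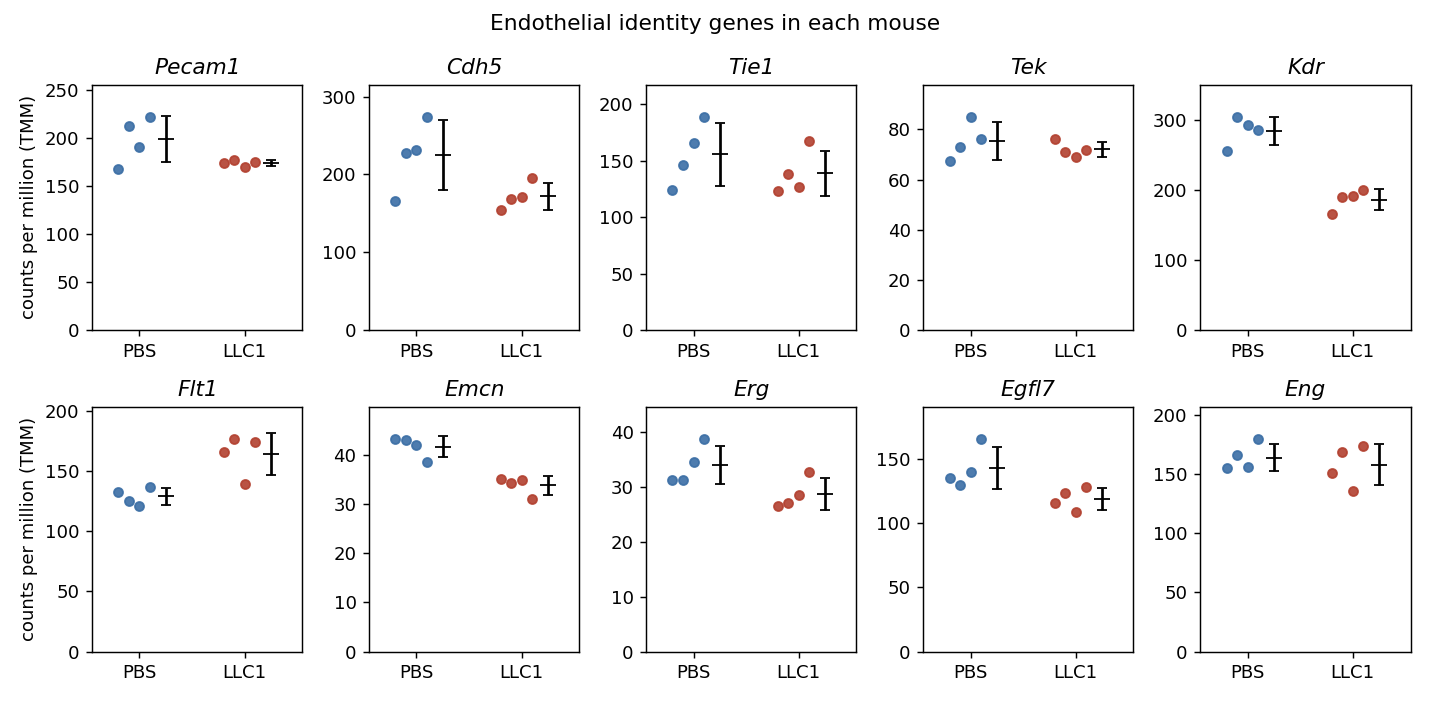
Level of each endothelial identity gene in CPM (vertical axis, TMM-scaled, starting at 0) in the 4 PBS-injected and the 4 tumor-bearing (LLC1) mice. Points are single mice and the black mark with bars is the group mean ± SD. The groups are apart for Kdr, Flt1, Emcn and Egfl7 and overlap for the other 6 genes.

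**Figure D2:**
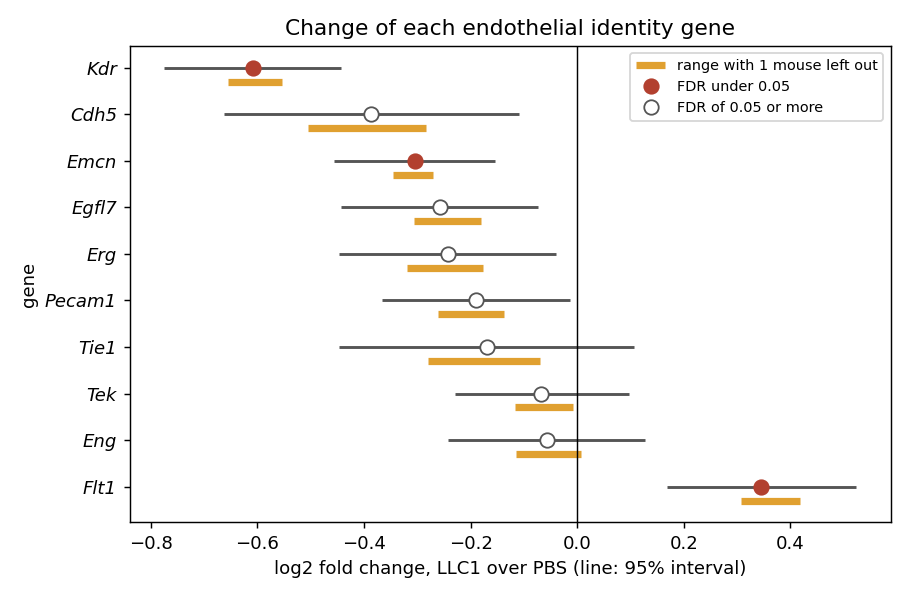
Log2 fold change of each gene, tumor-bearing over PBS-injected, with its 95% interval (grey line) and the range of the estimate over the 8 fits that left out 1 mouse (yellow bar). Filled points mark an FDR under 0.05. Kdr lies farthest below 0 at -0.61, and Flt1 alone lies above 0, at 0.35.

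The largest change was in Kdr (ENSMUSG00000062960, mm10 chr5:75932827-75978458, minus strand), which encodes VEGFR2, the main signalling receptor for VEGF-A on endothelial cells. Its levels were 165, 190, 191 and 200 CPM in tumor-bearing mice and 256, 304, 293 and 285 CPM in PBS-injected mice. The highest tumor-bearing mouse was well below the lowest PBS-injected mouse. Mean levels were 186 ± 14.9 CPM (SD, n = 4) and 284 ± 20.5 CPM (SD, n = 4), a fold of 0.656 with a 95% interval of 0.584 to 0.736. This was a log2 fold change of -0.61 (SE 0.08, FDR = 0.00132 in edgeR's quasi-likelihood test), and Kdr ranked 45 by p-value among the 16111 genes. The call held with each mouse left out in turn, with an FDR between 0.000182 and 0.00755 in edgeR. The exact 2-sided permutation p was 0.0286, the smallest that 4 mice against 4 allow.

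Flt1 (ENSMUSG00000029648, chr5:147561604-147726011, minus strand) encodes VEGFR1, which binds VEGF-A, VEGF-B and placental growth factor tightly and signals weakly. A soluble form made from the same gene traps VEGF, and counts per gene do not separate the soluble from the membrane form. Flt1 was at 166, 177, 139 and 174 CPM in tumor-bearing mice and at 133, 125, 121 and 137 CPM in PBS-injected mice. The groups did not overlap, although LLC1 1-5, at 139 CPM, was only just above PBS 2-5, at 137 CPM. Means were 164 ± 17.3 CPM (SD, n = 4) and 129 ± 7.35 CPM (SD, n = 4), a fold of 1.27 with a 95% interval of 1.12 to 1.44. On the log2 scale the change was 0.35 (SE 0.08, FDR = 0.0234 in edgeR's quasi-likelihood test), with an exact permutation p of 0.0286. The edgeR call of Flt1 was lost in 5 of the 8 fits that left out 1 mouse, with an FDR of 0.0608 without LLC1 1-2, 0.0807 without LLC1 1-3, 0.0702 without LLC1 2-2, 0.0849 without PBS 1-3 and 0.0673 without PBS 2-1. It was also lost with scaling by total counts alone (log2 fold change 0.29, FDR = 0.0719 in edgeR), the highest FDR among 12 alternatives with all mice that began at 0.00246. Flt1 had a log2 fold change above 0 in every one of these fits.

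Kdr and Flt1 were also set against each other within the same libraries. The ratio of Flt1 CPM to Kdr CPM, not corrected for gene length, was 1.00, 0.933, 0.727 and 0.873 in tumor-bearing mice and 0.521, 0.411, 0.413 and 0.482 in PBS-injected mice. Every tumor-bearing mouse had a higher ratio than every PBS-injected mouse, with means of 0.883 ± 0.116 (SD, n = 4) and 0.457 ± 0.0541 (SD, n = 4). This separation follows from the levels above, where the groups were apart in opposite directions for the 2 genes. It is therefore no further evidence. To see each gene against the rest of the set, its log2 CPM was also taken relative to the mean log2 CPM of the other 9 genes in the same mouse. On this scale Kdr was 0.47 lower in tumor-bearing mice and Flt1 0.59 higher, each with an exact 2-sided permutation p of 0.0286. The other 8 genes differed by between -0.20 for Cdh5 and 0.14 for Tek on this log2 scale, and their exact permutation p was 0.114 or more. Without PBS 1-1 the ratio of Cdh5 was 0.30 lower, and without LLC1 1-5 that of Eng was 0.19 higher. Each had an exact permutation p of 0.0286, the smallest that 3 mice against 4 allow. These 2 were picked from the ratios of all 10 genes over the 8 fits that left out 1 mouse. These p-values are unadjusted, and with all mice none of the 10 ratios was under 0.05 after Benjamini-Hochberg adjustment over them. The ratios share their genes and are not independent.

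**Figure D3:**
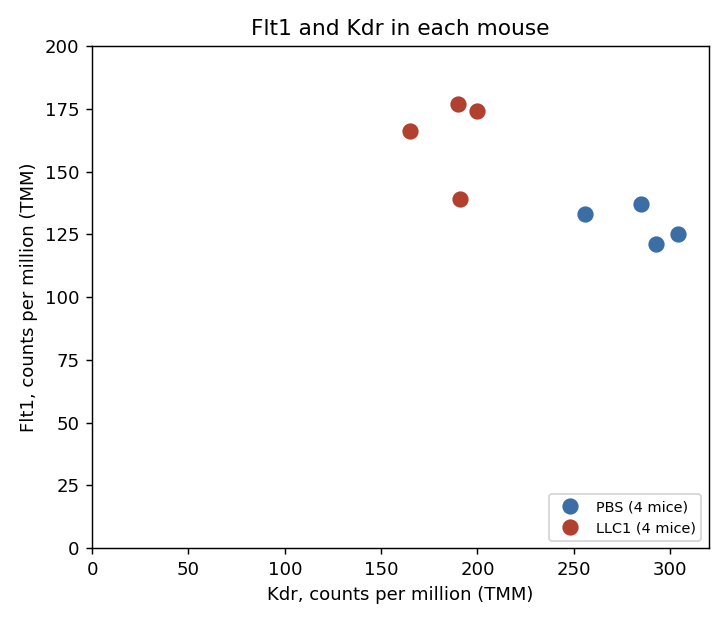
Flt1 (vertical axis) against Kdr (horizontal axis), both in TMM-scaled CPM, with 1 point per mouse. The tumor-bearing mice lie at up to 200 CPM of Kdr and at 139 CPM or more of Flt1, and the PBS-injected mice at 256 CPM or more of Kdr and at up to 137 CPM of Flt1.

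The sequences just upstream of the 3 called genes, Kdr, Flt1 and Emcn, are shown as a description. Whether these sequences bear on the changes was not tested. They are the 250 bases before the RefSeq start in GRCm38.p6, 5′ to 3′ on the gene's strand. RefSeq's table had entries for 8 of the 10 genes, and none for Pecam1 and Cdh5. Capitals mark the GC box GGGCGG, the TATA box TATAAA and the cyclic AMP response element TGACGTCA, each searched on both strands. The last of these was added after the sequences were seen.
Kdr, chr5:75978456-75978705: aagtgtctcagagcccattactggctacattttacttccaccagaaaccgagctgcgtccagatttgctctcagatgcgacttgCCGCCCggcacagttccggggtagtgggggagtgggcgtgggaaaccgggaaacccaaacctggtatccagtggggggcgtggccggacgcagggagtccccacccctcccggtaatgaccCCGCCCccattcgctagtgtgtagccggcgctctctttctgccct
Flt1, chr5:147726012-147726261: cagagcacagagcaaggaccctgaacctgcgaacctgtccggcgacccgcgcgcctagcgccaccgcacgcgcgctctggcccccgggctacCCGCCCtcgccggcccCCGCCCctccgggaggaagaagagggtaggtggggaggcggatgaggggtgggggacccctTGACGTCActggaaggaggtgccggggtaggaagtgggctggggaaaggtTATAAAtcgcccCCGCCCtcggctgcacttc
Emcn, chr3:137340828-137341077: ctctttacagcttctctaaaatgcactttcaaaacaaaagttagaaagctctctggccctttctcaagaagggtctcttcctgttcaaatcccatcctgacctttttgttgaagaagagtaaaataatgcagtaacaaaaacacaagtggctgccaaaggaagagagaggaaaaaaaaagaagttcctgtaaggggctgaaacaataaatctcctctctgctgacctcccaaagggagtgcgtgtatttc
The Kdr stretch held 2 GC boxes, which start at positions -166 and -45 from the RefSeq start, and no TATA box. The Flt1 stretch held 3 GC boxes at -158, -142 and -19, a TATA box at -31 and a cyclic AMP response element at -81. The Emcn stretch held none of these motifs. Other motifs were searched but not marked. The ETS core GGAA matched 4 times in each of the 3 stretches, and was present in 93.4% of all promoters. The extended ETS motif CGGAAG and the hypoxia response core ACGTG had no match in the 3 stretches. Among the 32851 promoters of the table, the upstream 250 bases held a GC box in 32.7%, a TATA box in 12.4% and a cyclic AMP response element in 1.55%. GC content was 61.6% for Kdr, 70.4% for Flt1 and 40.8% for Emcn, beside a median of 52.4% over all promoters. A match describes the letters only.

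The other genes of VEGF and angiopoietin signalling were read from a list of 13 ligands, co-receptors and partners, all of which were tested. Of these 3 fell and 1 rose, with a median log2 fold change of -0.11. The genes that fell were all co-receptors or partners of receptors. Nrp2, a neuropilin that assists VEGF receptors, was at 43.0, 50.9, 48.6 and 53.8 CPM in tumor-bearing mice and at 73.8, 111, 87.2 and 110 CPM in PBS-injected mice (log2 fold change -0.96, SE 0.12, FDR = 0.00139 in edgeR). Nrp1, the neuropilin that presents VEGF-A to VEGFR2, was at 156, 179, 170 and 177 CPM against 209, 244, 244 and 225 CPM (log2 fold change -0.44, SE 0.07, FDR = 0.00501 in edgeR). Plxnd1, the semaphorin receptor plexin D1, was at 110, 131, 117 and 136 CPM against 159, 200, 170 and 201 CPM (log2 fold change -0.57, SE 0.09, FDR = 0.00513 in edgeR). The groups did not overlap for any of these 3 genes, and each was called with every mouse left out in turn.

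Vegfb, whose product binds VEGFR1 and not VEGFR2, was the one ligand that rose. It was at 195, 184, 197 and 186 CPM in tumor-bearing mice and at 174, 154, 152 and 155 CPM in PBS-injected mice, with no overlap (log2 fold change 0.27, SE 0.06, FDR = 0.0252 in edgeR). In edgeR the FDR of Vegfb was 0.0662 without LLC1 1-2, 0.0578 without LLC1 1-3, 0.078 without LLC1 1-5, 0.0509 without LLC1 2-2, 0.089 without PBS 1-3 and 0.0683 without PBS 2-1, so the call held in 2 of the 8 fits that left out 1 mouse. It was also lost with offsets for GC content (FDR = 0.301 in edgeR). Vegfa, the main VEGFR2 ligand, was not called. It was at 345, 361, 402 and 326 CPM in tumor-bearing mice and at 567, 424, 336 and 314 CPM in PBS-injected mice (log2 fold change -0.19, SE 0.16, FDR = 0.466 in edgeR). The PBS-injected mice spanned the tumor-bearing ones, with the highest level in PBS 1-1. Pgf, for placental growth factor, had a log2 fold change of 0.26 (FDR = 0.373 in edgeR), and Flt4, for the lymphatic receptor VEGFR3, had one of -0.08 (FDR = 0.776 in edgeR).

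**Figure D4:**
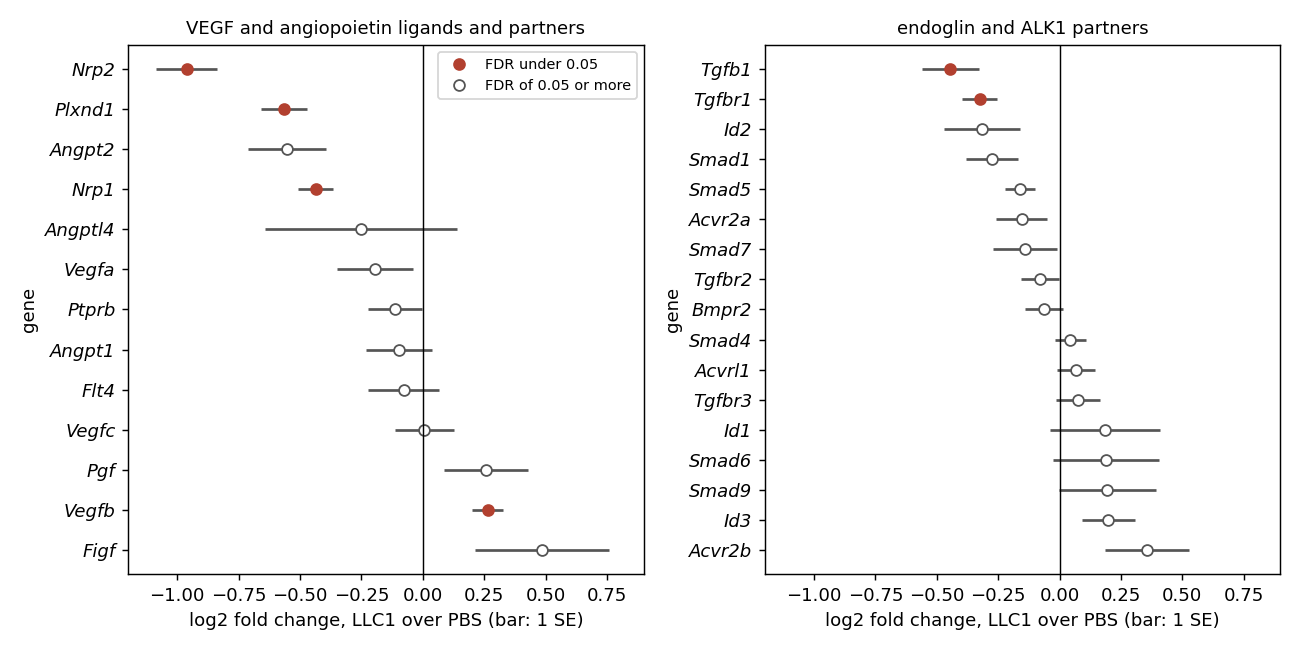
Log2 fold change (tumor-bearing over PBS-injected) with its SE for the tested genes of 2 lists, VEGF and angiopoietin ligands and partners on the left and endoglin and ALK1 partners on the right. Filled points mark an FDR under 0.05. Nrp2 lies lowest at -0.96, and Vegfb at 0.27 is the one filled point above 0.

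Tie1 and Tek encode the angiopoietin receptor pair, of which TEK (TIE2) binds angiopoietins and TIE1 modulates it. Neither was called. Tie1 (ENSMUSG00000033191, chr4:118471191-118490061, minus strand) was at 123, 138, 127 and 168 CPM in tumor-bearing mice and at 124, 146, 166 and 189 CPM in PBS-injected mice. The groups overlapped, and the means of 139 ± 20.1 CPM and 156 ± 27.9 CPM (SD, n = 4 each) gave a log2 fold change of -0.17 (SE 0.13, FDR = 0.434 in edgeR). Tek (ENSMUSG00000006386, chr4:94739289-94874976, plus strand) was at 76.3, 71.1, 69.0 and 71.8 CPM against 67.3, 72.9, 85.0 and 76.3 CPM. The lowest and the highest Tek value both belonged to PBS-injected mice, and the log2 fold change was -0.07 (SE 0.08, 95% interval -0.23 to 0.10, FDR = 0.620 in edgeR). Of their ligands, Angpt2, the context-dependent antagonist, had non-overlapping groups at 3.27 to 3.90 CPM and 4.03 to 6.52 CPM but missed the call (log2 fold change -0.55, SE 0.16, FDR = 0.0527 in edgeR). Angpt1, the agonist, had a log2 fold change of -0.10 (FDR = 0.691 in edgeR), and Ptprb, the phosphatase that acts on TEK and VE-cadherin, one of -0.11 (FDR = 0.552 in edgeR).

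Pecam1, Cdh5 and Emcn encode surface proteins of the endothelial cell. Emcn (ENSMUSG00000054690, chr3:137341067-137432185, plus strand) makes endomucin, a sialoglycoprotein typical of capillaries, veins and endocardium. It was at 35.1, 34.2, 34.8 and 31.0 CPM in tumor-bearing mice and at 43.3, 43.0, 42.0 and 38.6 CPM in PBS-injected mice. The groups did not overlap, the means being 33.8 ± 1.89 CPM (SD, n = 4) and 41.7 ± 2.17 CPM (SD, n = 4). Emcn had a log2 fold change of -0.31 (SE 0.07, FDR = 0.0205 in edgeR's quasi-likelihood test), a fold of 0.809 with a 95% interval of 0.729 to 0.899, and the exact permutation p was 0.0286. The call was lost without LLC1 1-3 (FDR = 0.0599 in edgeR), without LLC1 2-2 (0.0561) and without PBS 1-3 (0.0671). Emcn had the lowest GC content of the 10 transcripts, 40.7%, and with offsets for GC content its log2 fold change was -0.20 (FDR = 0.0628 in edgeR, the highest of 12 alternatives that began at 0.00516).

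Cdh5 (ENSMUSG00000031871, chr8:104101625-104144502, plus strand) makes VE-cadherin, the adhesion molecule of endothelial junctions. It was at 154, 168, 171 and 195 CPM in tumor-bearing mice and at 166, 228, 232 and 274 CPM in PBS-injected mice. PBS 1-1, at 166 CPM, lay within the tumor-bearing range, and the other 3 PBS-injected mice lay above it. The log2 fold change of Cdh5 was -0.39 (SE 0.13, FDR = 0.080 in edgeR), and without PBS 1-1 it was -0.51 (FDR = 0.00334 in edgeR). Cdh5 was called in 4 of the 12 alternatives with all mice, whose FDR ran from 0.0352 with DESeq2 to 0.0988 with total counts alone.

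Pecam1 (ENSMUSG00000020717, chr11:106654217-106750628, minus strand) makes CD31, a junctional adhesion protein that is also found on platelets and leukocytes. It was at 174, 177, 170 and 175 CPM in tumor-bearing mice, a narrow range, and at 168, 213, 191 and 222 CPM in PBS-injected mice. The tumor-bearing mice lay above PBS 1-1 and below the other 3, with a log2 fold change of -0.19 (SE 0.08, FDR = 0.168 in edgeR). Without PBS 1-1 the log2 fold change was -0.26 and the FDR was 0.0195 in edgeR, while the other 7 fits that left out 1 mouse gave no call and FDRs of up to 0.340.

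A list of 18 other genes of endothelial junctions and adhesion held 17 tested genes, of which 5 fell and 1 rose (median log2 fold change -0.14). The number that fell was 2 without LLC1 1-2, LLC1 1-3, LLC1 1-5 or PBS 1-3 and 3 without LLC1 2-2. In those fits 2.02% to 2.95% of all genes were called lower, beside 4.61% with all mice. Cldn5, for the tight junction protein claudin-5, was at 18.2 ± 3.41 CPM in tumor-bearing mice and 31.4 ± 6.62 CPM in PBS-injected mice (SD, n = 4 each; log2 fold change -0.79, FDR = 0.0121 in edgeR). Icam1, for the leukocyte adhesion molecule, had a log2 fold change of -0.66 (FDR = 0.0387 in edgeR). Jam3, for a junctional adhesion molecule, had one of -0.35 (FDR = 0.0213 in edgeR). Icam1 lost its edgeR call without any 1 of the tumor-bearing mice or without PBS 1-3, at FDRs of 0.063 to 0.109. Jam3 lost its call in the same 5 fits and without PBS 2-1, at FDRs of 0.0514 to 0.0683 in edgeR. Pkp4, for the armadillo protein plakophilin-4, rose with a log2 fold change of 0.41 (FDR = 0.0086 in edgeR). Ctnnb1, for the VE-cadherin partner beta-catenin, had a log2 fold change of -0.02 (FDR = 0.845 in edgeR).

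Eng (ENSMUSG00000026814, chr2:32646595-32682669, plus strand) encodes endoglin, a co-receptor that helps BMP9 and BMP10 signal through ALK1. It was at 151, 169, 136 and 174 CPM in tumor-bearing mice and at 155, 166, 156 and 180 CPM in PBS-injected mice. The groups overlapped over most of their range, and the log2 fold change was -0.06 (SE 0.09, 95% interval -0.24 to 0.13, FDR = 0.712 in edgeR). Without LLC1 1-5 it was 0.01 (FDR = 0.970 in edgeR). Of 17 tested partners of endoglin and ALK1, 2 fell and none rose, with a median log2 fold change of -0.06. Tgfb1, for the ligand TGF-beta1, was at 14.4 ± 1.75 and 19.7 ± 2.76 CPM (SD, n = 4 each; log2 fold change -0.44, FDR = 0.0384 in edgeR). Tgfbr1, for the receptor kinase ALK5, was at 20.8 ± 0.585 and 26.1 ± 1.35 CPM (SD, n = 4 each; log2 fold change -0.33, FDR = 0.0174 in edgeR). Tgfb1 lost its edgeR call without LLC1 1-2, LLC1 1-3, LLC1 1-5, PBS 1-3 or PBS 2-5, at FDRs of 0.0676 to 0.111. Tgfbr1 lost its call without LLC1 1-3 or PBS 1-3 (FDR = 0.0605 for each in edgeR) and with offsets for GC content (0.0723). Acvrl1, for ALK1 itself, had a log2 fold change of 0.07 (FDR = 0.637 in edgeR). The target genes Id1, Id2 and Id3 had log2 fold changes of 0.19, -0.32 and 0.20 (FDR = 0.643, 0.227 and 0.271 in edgeR). Bmp10 had no count in any library and Gdf2, for BMP9, was too low to be tested.

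Erg (ENSMUSG00000040732, chr16:95359169-95586593, minus strand) encodes the ETS factor that maintains endothelial identity. It was at 26.5, 27.1, 28.6 and 32.8 CPM in tumor-bearing mice and at 31.3, 31.3, 34.5 and 38.8 CPM in PBS-injected mice. Only LLC1 2-2 reached into the PBS-injected range, and the log2 fold change was -0.24 (SE 0.09, FDR = 0.129 in edgeR). Erg was called in none of the 12 alternatives with all mice and in none of the 8 fits without 1 mouse. Among 19 tested endothelial transcription factors on a separate list, 6 fell and none rose, with a median log2 fold change of -0.21. Ets1, another ETS factor, was at 60.9 ± 2.34 CPM in tumor-bearing mice and 101 ± 0.431 CPM in PBS-injected mice (SD, n = 4 each; log2 fold change -0.73, FDR = 0.000142 in edgeR). Sox7, a SOXF factor, was at 16.4 ± 3.53 and 27.4 ± 4.46 CPM (SD, n = 4 each; log2 fold change -0.74, FDR = 0.0133 in edgeR). Hlx had a log2 fold change of -0.81 (FDR = 0.0219 in edgeR), and its call was lost without LLC1 1-2, LLC1 1-5 or PBS 1-3 at FDRs of 0.0513 to 0.0592. Tcf4 had one of -0.41 (FDR = 0.0108 in edgeR), lost with offsets for GC content at an FDR of 0.0732. Fli1, the ETS factor closest to Erg, had a log2 fold change of -0.16 (FDR = 0.281 in edgeR).

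Egfl7 (ENSMUSG00000026921, chr2:26580014-26593120, plus strand) encodes a secreted matrix protein of endothelial cells and hosts a microRNA. It was at 116, 124, 109 and 128 CPM in tumor-bearing mice and at 135, 130, 140 and 166 CPM in PBS-injected mice. The groups did not overlap (exact permutation p = 0.0286), with LLC1 2-2 at 128 CPM next to PBS 1-3 at 130 CPM. Egfl7 had a log2 fold change of -0.26 (SE 0.09, FDR = 0.0795 in edgeR), so it missed the call. It was called with DESeq2 (FDR = 0.0499) and with offsets for GC content (FDR = 0.0106 in edgeR), among 12 alternatives whose FDR reached 0.0893, and without PBS 1-1 (FDR = 0.0495 in edgeR). Exons of Gm20532 on the same strand cover 7.37% of the Egfl7 exons, so reads there could be counted for either gene or for neither.

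The microRNA in Egfl7 is miR-126a, an abundant endothelial regulator of VEGF signalling, and its 3p arm is shown with its seed, bases 2 to 8, in capitals.
mmu-miR-126a-3p, chr2:26591402-26591423, plus strand: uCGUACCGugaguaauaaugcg
This RefSeq sequence lies within the Egfl7 gene. The Mir126a entry of the table had 9, 7, 7 and 17 counts in tumor-bearing mice and 7, 14, 9 and 17 counts in PBS-injected mice, and was too low to be tested. Such libraries do not capture mature microRNAs, so these counts say nothing of the level of the mature arm.

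Between genes, levels were compared per kilobase of the deposited gene length. That length need not equal the length of the transcripts made, for example in Flt1 with its soluble and membrane forms. The order rests on these lengths. In PBS-injected mice the order was Cdh5 at 56.4 RPKM, Eng at 40.5, Egfl7 at 39.9, Kdr at 39.1, Pecam1 at 31.9, Tie1 at 31.8, Tek at 16.0, Flt1 at 11.1, Erg at 9.80 and Emcn at 7.72 RPKM. Neighbours in this order overlapped in their ranges over mice except Tie1 and Tek, Tek and Flt1, and Erg and Emcn. In tumor-bearing mice Cdh5 was again first at 43.2 RPKM, and Kdr stood at place 6 with 25.6 RPKM, below Tie1 at 28.3 and Pecam1 at 28.0 RPKM. Its range of 22.7 to 27.4 RPKM overlapped that of Pecam1. Flt1, at 14.2 RPKM, remained at place 8 but now overlapped Tek, at 15.3 RPKM, and no longer overlapped Erg, at 8.29 RPKM.

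Within a group, most pairs of the identity genes varied in the same direction from mouse to mouse. Pairs of other genes were not measured for comparison, so this is not shown to be particular to the set. After each group's mean was taken away, the median Pearson correlation of log2 CPM over the 8 mice was 0.405 for the 45 pairs of genes, and 34 of the pairs were above 0. These values describe 8 libraries whose genes share depth and scaling. Tie1 and Cdh5 (0.924) and Tie1 and Erg (0.900) varied most alike. Emcn was correlated below 0 with each of the other 9 genes, from -0.186 with Tek to -0.948 with Erg, although it and 8 of them had log2 fold changes of the same sign. The mean deviation of the 10 genes from their group's mean, on the log2 scale, was lowest in PBS 1-1 at -0.144 and highest in PBS 2-5 at 0.133, and ran from -0.069 to 0.100 in the tumor-bearing mice. The 10 genes outside the set that followed this mean most closely were Wasf2 (0.992), Lrp1 (0.986), Nid1, Phf21a, App, Ptprb, Trim7, Unc45a, Notch3 and Mmp17 (0.982). Of these Nid1 and Trim7 fell in tumor-bearing mice, with log2 fold changes of -0.44 and -0.51 (FDR = 0.0195 and 0.0164 in edgeR), and the other 8 were not called. Nid1 was not called without LLC1 1-2, LLC1 1-3, LLC1 1-5 or PBS 1-3, at FDRs of 0.0538 to 0.0629.

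Of 35 other pan-endothelial markers, 9 fell and none rose, with a median log2 fold change of -0.21, close to that of the 10 identity genes. Between 6 (without LLC1 1-3 or LLC1 1-5) and 10 fell with 1 mouse left out, and 12 with offsets for GC content. With 1 mouse left out, 2.02% to 6.38% of all genes were called lower. Bcl6b, an endothelial transcriptional repressor, was at 16.1 ± 3.28 CPM in tumor-bearing mice and 42.9 ± 5.12 CPM in PBS-injected mice (SD, n = 4 each; log2 fold change -1.41, FDR = 0.000489 in edgeR). Cd93, a surface lectin of endothelial cells, was at 87.3 ± 7.41 and 164 ± 6.17 CPM (SD, n = 4 each; log2 fold change -0.91, FDR = 0.000142 in edgeR). The list shares 10 genes with those above, Cldn5, Esam, Icam2, Rasip1, Sox7, Sox17, Sox18, Fli1, Lyl1 and Ptprb, of which Cldn5 and Sox7 fell. Cd34, chosen here after its values were seen, was at 108 ± 5.06 and 180 ± 26.5 CPM (SD, n = 4 each; log2 fold change -0.74, FDR = 0.0015 in edgeR). Vwf, for von Willebrand factor, was not called (log2 fold change 0.20, FDR = 0.491 in edgeR), and nor was Nos3, for endothelial nitric oxide synthase (-0.24, FDR = 0.158 in edgeR).

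Most markers of single vessel types were not called, but the share called lower differed by list. Over all genes tested, 4.61% were called lower and 4.12% higher. With 1 mouse left out, 2.02% to 6.38% of all genes were called lower. Among 13 capillary markers only Kdr and Fabp5 fell (median log2 fold change 0.09), and Fabp5, a fatty acid carrier, was at 27.1 ± 2.92 and 40.8 ± 5.61 CPM (SD, n = 4 each; log2 fold change -0.59, FDR = 0.00787 in edgeR). Without PBS 2-5, 3 capillary markers were called higher, as were 4.99% of all genes. With all mice, 2 were higher with no filter, the likelihood ratio test or the replicate code covariate. With DESeq2 or offsets for GC content 1 was. Of 18 arterial markers 1 fell (Unc5b), and 2 fell without PBS 1-1 or with offsets for GC content. Of 7 tested venous markers 3 fell (Sele, Bgn and Vcam1), and of 8 tested endocardial markers 1 fell (Postn). Of 9 lymphatic markers none was called, but 1 was lower without PBS 1-1 and 1 higher without LLC1 1-2. With all mice, 1 lymphatic marker was lower and 1 higher with DESeq2, no filter, the likelihood ratio test or gene length offsets. With offsets for GC content 1 was lower. The call of Vcam1 was lost without LLC1 1-2, LLC1 1-5, LLC1 2-2 or PBS 1-3, at FDRs of up to 0.0692 in edgeR. Lists overlap, and Bgn and Postn are also made by fibroblasts. Of 20 tested markers of angiogenic (tip) cells, 12 fell and none rose, with a median log2 fold change of -0.49, and 8 to 16 fell in the fits that left out 1 mouse. Prnd, Aplnr, Apln and Vash1 led that list, and the apelin receptor Aplnr was at 22.6 ± 3.72 and 72.5 ± 12.2 CPM (SD, n = 4 each; log2 fold change -1.68, FDR = 0.000142 in edgeR).

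**Figure D5:**
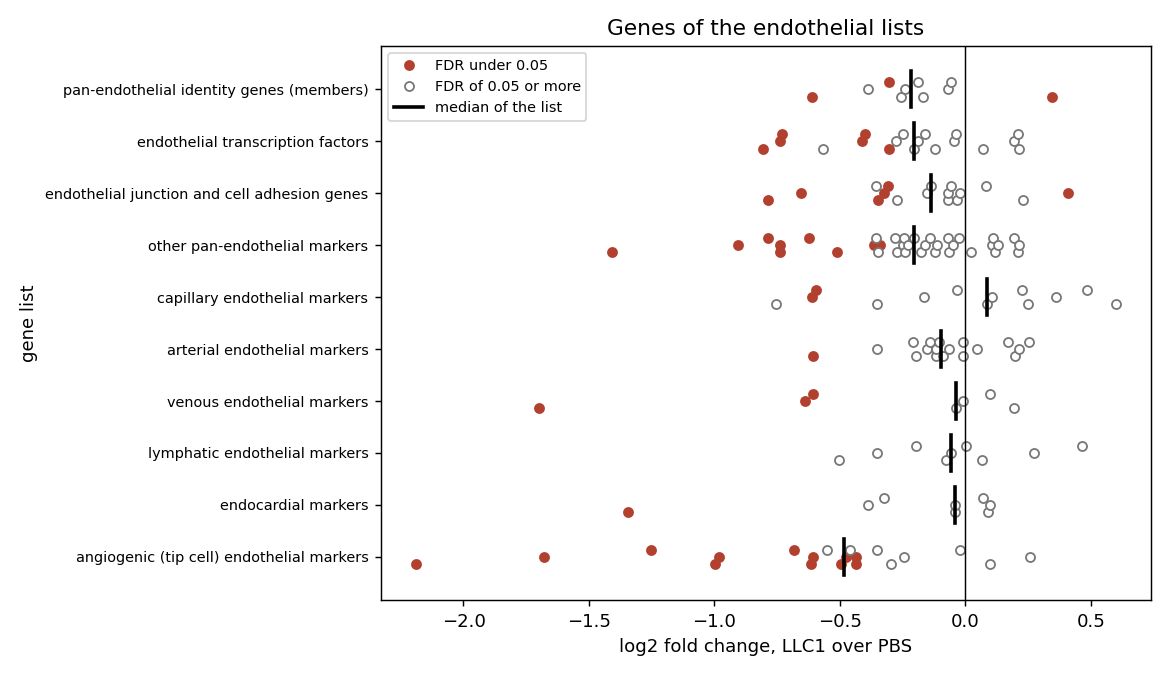
Log2 fold change (horizontal axis, tumor-bearing over PBS-injected) of each tested gene of 10 endothelial lists, spread vertically so that points do not cover each other. Filled points mark an FDR under 0.05 and black bars the list's median, which is -0.22 for the identity genes, 0.09 for the capillary markers and -0.49 for the angiogenic markers. A gene can stand in several lists.

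Markers of other cells of the ventricle were measured beside the identity genes, and sums are over all listed genes of a type, tested or not. Of 12 pericyte markers 2 fell, and their summed level was 1352 to 1471 CPM in tumor-bearing mice against 1517 to 1702 CPM in PBS-injected mice. No pericyte marker was called in edgeR without LLC1 1-3, LLC1 1-5, LLC1 2-2 or PBS 1-3, 1 was without LLC1 1-2, PBS 2-1 or PBS 2-5, and 4 were without PBS 1-1. Calls over all genes moved too. With all mice 4.61% of the genes tested were called lower, against 2.02% without PBS 1-3 and 6.38% without PBS 1-1. Of 11 fibroblast markers 5 fell, with sums of 2524 to 2861 and 2491 to 3169 CPM, and 3 fell without LLC1 1-2, LLC1 1-3, LLC1 1-5 or PBS 1-3. Of 13 macrophage markers 4 fell, with sums of 323 to 409 and 360 to 509 CPM. That count was 1 without LLC1 1-2, LLC1 1-5 or PBS 2-1, 2 without LLC1 1-3 or LLC1 2-2, and 6 without PBS 1-1. Of 8 platelet markers, 6 were tested and 1 fell (19.4 to 27.6 and 25.6 to 29.4 CPM), and these cells, like macrophages, also express Pecam1.

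Of 9 smooth muscle markers 1 rose, Des, which is also abundant in heart muscle cells, with means of 2514 and 2009 CPM (FDR = 0.00889 in edgeR, and 0.0523 with offsets for GC content). The other 8 summed to 460 to 561 CPM in tumor-bearing mice and to 530 to 564 CPM in PBS-injected mice. Of 13 cardiomyocyte markers 2 rose, Myh6 and Myh7, and the 13 summed to 142704 to 153119 and 131774 to 142886 CPM. Only 1 of them rose without LLC1 1-3, LLC1 1-5, PBS 1-3 or PBS 2-1, 4 rose without PBS 1-1, and none was called with scaling by total counts alone (FDR = 0.124 for Myh6 and 0.0704 for Myh7 in edgeR). Of all genes, 1.30% were called higher without PBS 1-3, 5.56% without PBS 1-1 and 1.40% with total counts alone. Myh6 also lost its call with offsets for GC content (FDR = 0.16 in edgeR) and with edgeR's likelihood ratio test (FDR = 0.0925). Of 9 neutrophil markers 4 were tested and 2 rose, S100a8 and S100a9 (sums of 4.43 to 7.70 and 1.77 to 4.14 CPM), but S100a8 was called in 1 of the 8 fits that left out 1 mouse, that without PBS 1-1. S100a8 was also not called with DESeq2, which gave it no FDR, or with offsets for gene length (FDR = 0.0528 in edgeR). Neither S100a8 nor S100a9 passed a filter of at least 10 counts in every mouse. With all mice, none of the lymphocyte markers (2 of 10 tested; 2.17 to 3.37 and 3.23 to 5.06 CPM), the erythroid markers (6 of 7 tested; 1430 to 5182 and 1557 to 3099 CPM) or the 6 mesothelial markers (11.8 to 68.0 and 19.7 to 53.2 CPM) was called, and 1 mesothelial marker was called higher without LLC1 1-2. Of 24 cell division genes 19 were tested and 14 fell, with sums of 89.4 to 105 and 115 to 211 CPM. The count was 6 without PBS 1-3, 8 without LLC1 1-3 and 9 without LLC1 1-5, where 2.02% to 2.44% of all genes were called lower. It was 7 with a filter of at least 10 counts in every mouse, under which Top2a and Cdk1, among others, were not tested. The part of any of these cells in the levels of the identity genes was not tested.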

How the data were processed

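RNA was sequenced from the ventricles of 4 tumor-bearing and 4 PBS-injected male mice. The authors deposited unnormalized read counts per gene for each mouse, in 1 table of 43346 genes. The submitters' processing notes name CASAVA, STAR, featureCounts and mm10, and the annotation and the strand setting are not given in the sources used here. Reads from overlapping genes on opposite strands (Agpat2 over 1.79% of Egfl7 exons, Fpgs over 1.51% of Eng exons) therefore cannot be assigned.

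Counts were compared with edgeR 4.0.16 in R 4.3.3 (filterByExpr, TMM factors, quasi-likelihood F-test, Benjamini-Hochberg adjustment over 16111 genes, no covariate). The SE is the absolute log2 fold change divided by the square root of F. RPKM is CPM divided by the deposited gene length in kilobases. Single genes were also compared by an exact 2-sided permutation test of log2 CPM (prior count 2) over the 70 arrangements of the mice. The biological coefficient of variation was 0.109. Nothing in the labels says how the mice were housed or their RNA handled, so p-values measure the spread between these 8 samples. Groups were taken from the stated treatment and compared as unpaired.

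Alternatives with all mice were DESeq2 1.42.0, limma-voom (limma 3.58.1), edgeR with its likelihood ratio test or robust moderation, RLE and upper-quartile factors, total counts only, no filter on low counts, at least 10 counts in every mouse, the number before the hyphen of each code as a covariate, and offsets for gene length or GC content (loess span 0.3). Each mouse was also left out in turn. The GC offsets were added after the data were seen. The genes and lists were chosen with earlier results of these data known. All 10 genes were named with every value. From each other list at most 4 called genes with the largest change were named, up to 8 for ligands and partners, and Cd34 and any uncalled gene named beside them were chosen after its values were seen. The edgeR fit was also run on simulated counts, and the outcome is not reported here. Sequences come from RefSeq (GRCm38.p6), tables were made with Python 3.11.15, and echocardiography, protein and respiration data were not analysed here.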

Additional observations from a re-analysis of the deposited data

How the results depend on the processing

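The median log2 fold change of the 10 genes stayed below 0 in all 12 alternatives with all mice and all 8 fits without 1 mouse, and Kdr was called in each of them. No paired analysis was possible because the groups share only 1 replicate code, 1-3. With DESeq2, 4 genes were called lower, beside 5.26% of all genes. With total counts alone, 0 were called higher and 2 had groups that did not overlap, beside 1.40% and 15.6% of all genes. Leaving out each mouse in turn gave 1 to 5 genes called lower, 0 to 1 called higher and 0 to 1 of the other pan-endothelial markers called higher. All genes called numbered 542 without PBS 1-3 to 1949 without PBS 1-1, beside 1406. Without 1 mouse, the log2 fold change of Eng ran from -0.114 to 0.008 (LLC1 1-5 left out). The log2 ratio of Pecam1 to the other 9 genes was 0.010 with all mice and 0.054 at most, and turned to -0.010 without LLC1 1-2, -0.003 without LLC1 1-5, -0.022 without PBS 1-1 and -0.014 without PBS 2-1. That of Tie1 was 0.031 and 0.090 at most, and turned to -0.036 without LLC1 2-2 and -0.033 without PBS 1-1. The cause was not tested. With 4 mice a group, changes as small as those of Tek and Eng could not be told from 0.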
